A study of Mus musculus with 12 samples.

Results

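Rapid-response genes are switched on within minutes of a growth factor, serum or stress signal, from transcription factors already present in the cell, and most of their messages are short-lived. The 10 such genes described here are Ier2, Ier3, Ier5, Ier5l, Csrnp1, Zfp36, Zfp36l1, Maff, Myc and Arid5a. They were picked by symbol and found through their Entrez IDs, and all 10 were present among the 27179 genes of the table and among the 13939 genes that were tested. The choice was made with earlier results of the same libraries known, in which immediate early genes were lower in Actr3 knockout cells than in control cells and higher with ciliobrevin D. Values for those 2 comparisons are therefore a description without a test, and the remaining comparisons, which share the same libraries, were tested across all genes. Control, Actr3 KO and treated libraries were thus in view at the choice, and each remaining comparison uses some of them. Its p-values for the 10 genes are not independent of the choice.

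Polyadenylated RNA came from mIMCD3 cells, a mouse kidney line of inner medullary collecting duct origin, grown to confluence for 48 h with 10% fetal calf serum and then kept without serum for 24 h. The 4 groups had 3 libraries each: control cells labelled wild type, 1 Actr3 knockout line (Actr3 KO), 1 line labelled as lacking Actr3 together with Ift88 (dKO), and Actr3 KO cells whose serum-free medium held 0.5 µM ciliobrevin D, which inhibits cytoplasmic dynein. The other 3 groups are labelled as control treatment, and the protocol gives solvent in place of the drug. All groups were serum-starved, and both knockout lines carry the Actr3 edit. Actr3 encodes a core subunit of the actin-nucleating Arp2/3 complex, and Ift88 a component of the transport machinery that builds cilia. Each knockout genotype was 1 line, so the line and its genotype cannot be told apart, and the labels leave unsaid if the 3 libraries of a group were separate cultures, so p-values reflect library-to-library spread alone, part of which may be technical.

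Libraries held 28902562 to 38077987 reads, and the recovered reads of the 10 genes ran from 189 (Csrnp1 in a dKO library) to 13116 (Ier3). Values are normalized counts (mean ± SD, n = 3), which are not corrected for gene length. Actr3 lay between 8101 and 8664 in control and between 833 and 1759 in the other 9 libraries. Ift88 lay between 573 and 633 in dKO and between 594 and 656 in Actr3 KO. It was lower in control, between 441 and 471, and in treated cells, between 434 and 443. Its RNA in dKO was thus not below control, and whole-gene counts cannot tell if a small edit altered its protein. One of the 3 control columns is named for control line 2, replicate 1, whereas all control titles name line 1. It was kept as a control with no replicate number, so the control means may mix 2 control lines, and leaving it out changed no call among the 10 genes. The 14 collecting duct and epithelial markers together summed to 118380 to 126922 in control and 80920 to 97559 in the other groups. The sum hides opposite changes. Cdh16, Krt8 and Epcam had the highest means over all 12 libraries. In Actr3 KO against control Cdh16 rose (log2 fold change 0.95), whereas Krt8 (-1.38) and Epcam (-0.84) fell. The water channel gene Aqp2 was at 0 in control and Actr3 KO and at most 1.86 elsewhere. For 18 markers of other kidney and stromal cells, control libraries summed to 10992 to 13146, Actr3 KO libraries to 14997 to 17771, dKO libraries to 5654 to 6855 and treated libraries to 12434 to 12935. Most of that sum was Lrp2, itself a proximal tubule marker, whose group means ran from 5905 (dKO) to 15235 (Actr3 KO). Slc34a1, also of the proximal tubule, was at 0 in every library, so the markers of that segment disagreed. The leukocyte gene Ptprc was at most 27.6 and the endothelial gene Cdh5 at most 1.99 in any library. Other markers were higher: the macrophage marker Cd68 was 161 ± 16.0 in control and 332 ± 23.5 with ciliobrevin D, the thick limb gene Umod reached 511 and the collagen gene Col1a1 reached 160.4. Their part in the results was not tested. In bulk RNA, fewer cells of a type and less RNA per cell cannot be told apart.

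The genes fall into 3 groups by what their products do. Ier2, Ier5 and Ier5l encode related nuclear proteins of the immediate early response family, and IER5 is known to activate the heat shock factor HSF1. Ier3, also called IEX-1, shares the name but encodes an unrelated regulator of survival that is an NF-kB and ERK target. ZFP36, also called tristetraprolin, and ZFP36L1 bind AU-rich elements in messages and recruit the decay machinery, whereas ARID5A stabilizes certain inflammatory messages, among them that of interleukin-6. CSRNP1, MAFF and MYC are transcription factors, and MAFF is a small MAF protein that needs partners such as NRF2 or BACH1 to activate or repress.

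The AU-rich sites are shown because both ZFP36 proteins act through them. The nonamer TTATTTATT (capitals, with the flanking bases of the 3′ untranslated region) was present in 4 of the 10 genes in GENCODE M21 transcripts on GRCm38.
Zfp36: tgacgactTTATTTATTgtattaag
Zfp36l1: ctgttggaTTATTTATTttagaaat
Csrnp1: ctctgaatTTATTTATTtttttatg
Maff, first site: ccacactcTTATTTATTgcacgaat
Maff, second site: cccagagtTTATTTATTttctgact
Both decay factor genes are among these 4. Of 8112 tested genes with a 3′ untranslated region in the same length range, 8.09% held the nonamer. The core pentamer ATTTA was present in 9 of 10 genes, against 68.1% of 12310 tested genes, and its median density was 3.58 per kb against 1.26 per kb. Ier3 had the highest density at 8.16 per kb. Arid5a had 0.52 per kb, Ier5 had 0.93 per kb and Ier2 had none, so these 3 lay below the median of tested genes. These are matches of letters and not measured sites.

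**Figure D1:**
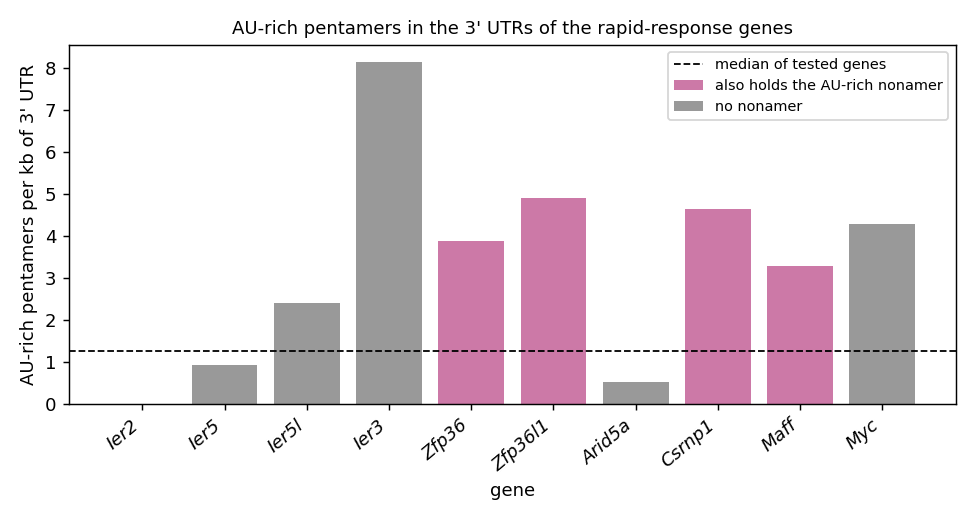
Density of the AU-rich pentamer in the 3′ untranslated region (y axis, matches per kb) of each gene (x axis). Pink bars mark the 4 genes that also hold the nonamer and grey bars those that do not, and the dashed line is the median of tested genes, 1.26 per kb. Ier3 has the highest density, 8.16 per kb, and Ier2 has no match.

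Windows from 250 bases before to 50 bases after the start site were searched for letters of known motifs, since many of the 10 had like profiles over the libraries. RefSeq windows (GRCm38.p6) were matched for 8 of the 10 genes; Ier2 and Myc were not matched. The 3 sequences shown were chosen, after the search, to show matches to sites of serum, NF-kB and AP-1 responses, each covering the 250 bases before the start site on the gene's strand, with motif matches in capitals.
Zfp36, chr7:28379229-28379478, minus strand: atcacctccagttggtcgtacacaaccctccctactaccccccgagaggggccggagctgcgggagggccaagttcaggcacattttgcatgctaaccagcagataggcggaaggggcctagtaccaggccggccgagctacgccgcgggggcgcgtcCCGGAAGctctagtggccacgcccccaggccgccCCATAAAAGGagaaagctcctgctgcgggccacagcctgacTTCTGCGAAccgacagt
Ier3, chr17:35821463-35821712, plus strand: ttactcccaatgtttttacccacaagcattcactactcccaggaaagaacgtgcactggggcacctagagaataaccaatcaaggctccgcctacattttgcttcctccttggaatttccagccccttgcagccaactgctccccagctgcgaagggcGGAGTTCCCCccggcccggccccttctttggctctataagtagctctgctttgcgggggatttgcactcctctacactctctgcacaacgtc
Zfp36l1, chr12:80113014-80113263, minus strand: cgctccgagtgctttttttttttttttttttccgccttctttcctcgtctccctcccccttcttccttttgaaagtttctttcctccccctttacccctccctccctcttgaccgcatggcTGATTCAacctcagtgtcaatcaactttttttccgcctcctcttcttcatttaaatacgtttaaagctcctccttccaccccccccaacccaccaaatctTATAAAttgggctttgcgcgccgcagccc
Zfp36 carried a CArG box, the site of the serum response factor SRF, starting at -58 (CCATAAAAGG), an ETS motif (CCGGAAG) at -92 and a STAT motif (TTCNNNGAA) at -17, counted from the start site. A CArG box was found in 1.27% of 13396 windows of tested genes, an ETS motif in 17% and a STAT motif in 6.92%. Ier3 carried an NF-kB motif at -92 (GGAGTTCCCC), which 5.3% of windows held, and Zfp36l1 an AP-1 motif (TGANTCA, here TGATTCA) at -129 and a TATA motif (TATAAA) at -29, held by 5.23% and 7.11%. Ier5l, not shown, carried a heat shock element (GAANNTTC) at -234, which 5.65% of windows held, and the first windows of Arid5a, Ier5 and Maff held no match. No motif was shared by more than 2 of the 8 genes in their first window, the STAT motif being in Zfp36 and Csrnp1. In Csrnp1 it lay at 38, after the start site and not upstream of it. At other annotated starts, Csrnp1 had 2 AP-1 motifs (TGAGTCA) at -102 and -14, and Maff a cyclic AMP response element (TGACGTCA) at -29. Maff also had an E-box (CACGTG) at -191, a STAT motif at 28 and an NF-kB motif (GGAGTTTCCC) at -70 at its other starts. Both strands were searched and overlaps between motifs were not removed. A match is a description of the letters, not evidence of binding.

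The genes are also compact. Their median span was 4145.5 bases against 21222.5 bases for tested genes, and all 10 were shorter than that median, from Ier3 with 1199 bases (chromosome 17, 35821713 to 35822911) to Arid5a with 16305 bases (chromosome 1, 36307733 to 36324037). The median of the largest exon number was 2.5 against 9, and Ier2, Ier5 and Ier5l each had 1 annotated exon. Per kb of exon sequence, Ier3 was the most abundant in control with 9613 normalized counts per kb and Arid5a the least with 48.0 per kb. Exon sequence here is the union of all GENCODE exons of a gene, 12540 bases for Arid5a, which may lower its value. Spans are from RefSeq, so the 2 lengths can disagree, as for Zfp36 with 3470 exon bases and a span of 2445. No other RefSeq gene overlaps these genes except the predicted model Gm33800 at Csrnp1, where reads of the 2 genes may mix, since strand use in the counting is not stated.

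Of the 10 genes, 9 were lower in Actr3 KO than in control, with a median log2 fold change over all 10 of -0.89 on the log2(value + 1) scale, and Arid5a was higher. The same median over all tested genes was 0.00. All 10 passed the limma threshold (Benjamini-Hochberg adjusted p under 0.05), 9 lower and 1 higher, in a comparison that called 69.8% of tested genes, 35.4% lower and 34.4% higher, and nothing is read from these counts because this contrast was in view when the genes were chosen. With ciliobrevin D all 10 were higher than in Actr3 KO, with a median of 2.12 (-0.02 over all genes), where 65.5% of tested genes were called, 32.7% higher and 32.9% lower. In dKO, against Actr3 KO, 3 genes rose, 4 fell and 3 did not pass the test, where 65.7% of tested genes were called. Depending on the comparison, 67.8% to 75.5% of the 13939 tested genes had 2 groups whose libraries did not overlap. Separation of groups, given below gene by gene, was thus the usual case and is only a description.

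**Figure D2:**
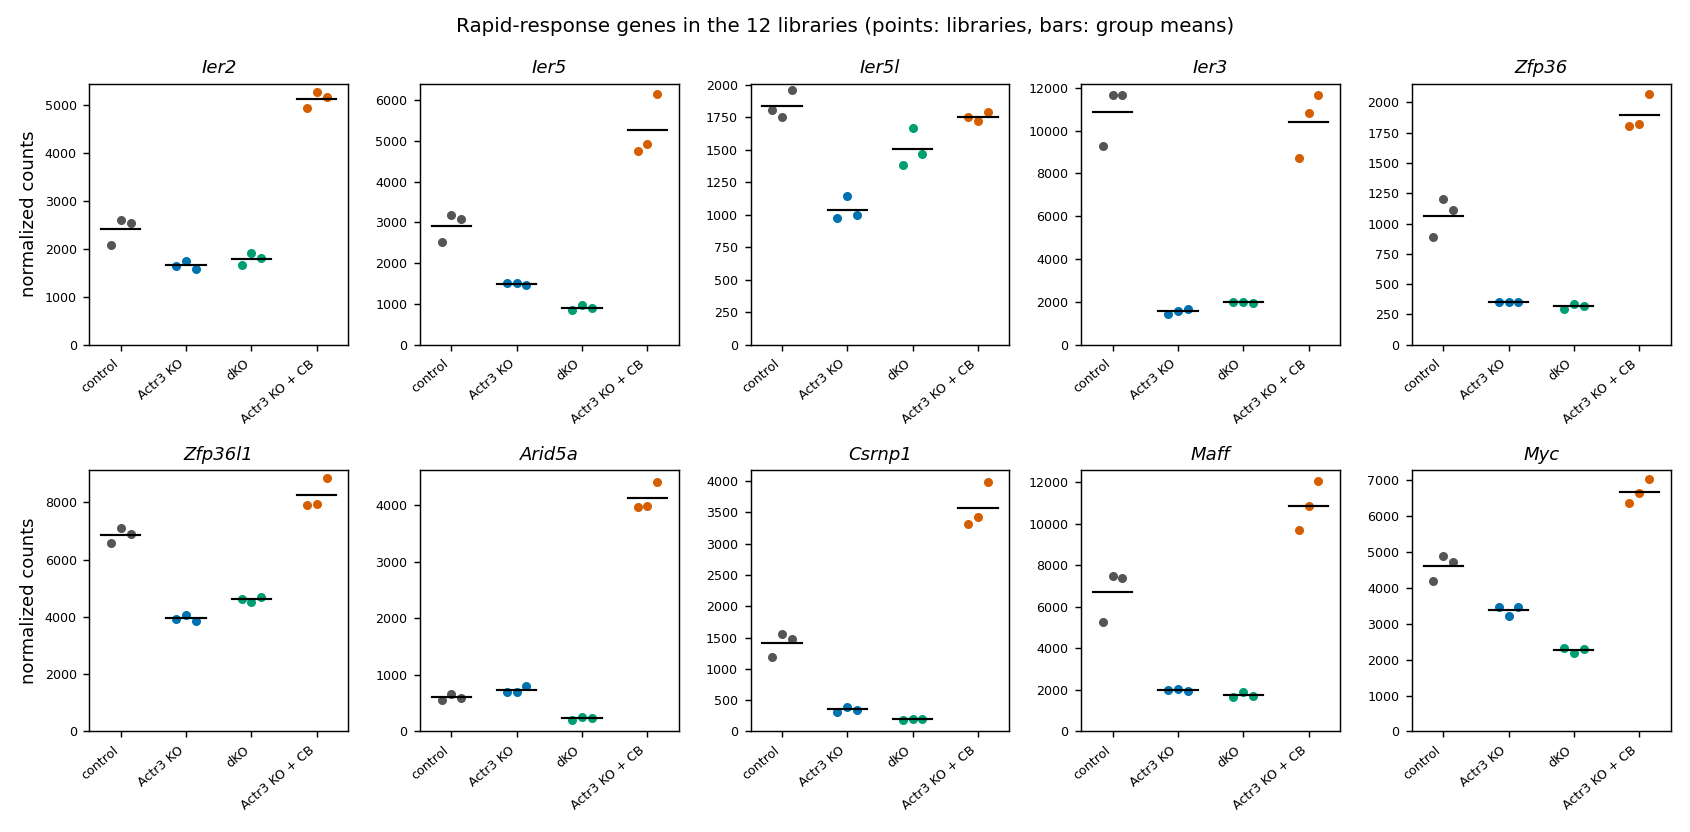
Normalized counts (y axis, linear, from 0) of each gene in each library, by group (x axis, CB is ciliobrevin D). Points are libraries and bars are group means. Ier3 is between 9296 and 11666 in control and between 1436 and 2003 in both untreated knockout lines, and Arid5a is between 3975 and 4404 with ciliobrevin D and at most 798 in the other groups.

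Among the IER genes, Ier3 had the widest gap between control and Actr3 KO. Its values were 9296, 11653 and 11666 in control and 1436, 1576 and 1657 in Actr3 KO, against 2003, 2001 and 1947 in dKO, while the treated libraries gave 8702, 10805 and 11684. Control and treated libraries overlapped, and both stood far above the untreated knockout lines. The mean was 6.99-fold higher in control than in Actr3 KO and 6.68-fold higher with ciliobrevin D than in Actr3 KO. Against Actr3 KO, Ier3 rose in dKO by 0.35 ± 0.09 (SE) on the log2 scale (limma adjusted p = 0.00166), all 3 dKO libraries being higher, and it was still 5.48-fold lower in dKO than in control (limma adjusted p = 1.32e-15). Treated and control cells differed by -0.07 (95% interval -0.25 to 0.12, limma adjusted p = 0.525), and without the first ciliobrevin D library the sign turned (0.06, adjusted p = 0.562).

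Ier2, Ier5 and Ier5l differed from one another in dKO. Ier5 was 2923 ± 361 in control and 1494 ± 29.6 in Actr3 KO, against 903 ± 65.1 in dKO and 5272 ± 758 in treated cells, and no 2 groups overlapped. It fell further in dKO than in Actr3 KO, with a log2 difference of -0.73 (SE 0.09, limma adjusted p = 2.42e-07). Ier5l went the other way, with 1840 ± 107 in control and 1040 ± 90.3 in Actr3 KO, against 1507 ± 147 in dKO and 1755 ± 34.8 in treated cells. It rose in dKO against Actr3 KO by 0.53 ± 0.07 (SE, limma adjusted p = 1.06e-06), and its treated and control libraries overlapped (difference -0.07, 95% interval -0.21 to 0.08, limma adjusted p = 0.422). Ier2 had the smallest loss of the family in Actr3 KO, with 2408 ± 287 in control and 1658 ± 91.0 in Actr3 KO. Its dKO level, 1789.7 ± 130.2, overlapped Actr3 KO (log2 difference 0.11, 95% interval -0.04 to 0.26, limma adjusted p = 0.196), and with ciliobrevin D it was 5128 ± 167, which is 2.13-fold above control (limma adjusted p = 4.53e-11).

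Both decay factors were lower in the untreated knockout lines, with log2 differences from control in Actr3 KO of -1.59 ± 0.09 (SE) for Zfp36 and -0.80 ± 0.05 (SE) for Zfp36l1. Zfp36 was at 885, 1200 and 1113 in control and 351, 350 and 354 in Actr3 KO, against 291, 332 and 323 in dKO and 1809, 1818 and 2066 in treated cells. The 6 untreated knockout libraries lay below every control library and the treated libraries above every one. The dKO libraries also lay below those of Actr3 KO, but the difference did not pass the test (-0.16, 95% interval -0.35 to 0.03, limma adjusted p = 0.13). Treated cells were 1.78-fold above control (limma adjusted p = 6.74e-08). Zfp36l1 was 6862 ± 266 in control and 3947 ± 94.6 in Actr3 KO, against 4616 ± 75.4 in dKO and 8252 ± 538 in treated cells. It rose in dKO against Actr3 KO by 0.23 ± 0.05 (SE, limma adjusted p = 0.000742) and treated cells were above control by 0.26 ± 0.05 (SE, limma adjusted p = 0.000167). In each of these 2 comparisons the 3 libraries of one group lay above the 3 of the other. Groups were likewise separate for 71.2% of tested genes in the first comparison and 67.8% in the second.

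Arid5a, whose product acts against message decay, had another order of groups than the other RNA-binding genes. It was at 555, 669 and 582 in control and 694, 700 and 798 in Actr3 KO, against 204, 252 and 239 in dKO and 3975, 3987 and 4404 in treated cells. It was the only one of the 10 that was not lower in Actr3 KO than in control, with a log2 difference of 0.28 ± 0.09 (SE). In dKO it fell 3.15-fold against Actr3 KO (log2 fold change -1.65 ± 0.09, SE, limma adjusted p = 6.33e-13) and 2.60-fold against control (limma adjusted p = 9.06e-12). With ciliobrevin D it was 6.85-fold above control (log2 fold change 2.78 ± 0.09, SE, limma adjusted p = 3.64e-16), the highest such value among the 10. All 4 groups were separate, and in each comparison of 2 groups 67.8% to 75.5% of tested genes were separate too.

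Of the transcription factors, Csrnp1 covered the widest range. It was at 1197, 1558 and 1475 in control and 316, 387 and 348 in Actr3 KO, against 176, 191 and 205 in dKO and 3320, 3421 and 3983 in treated cells. The groups did not overlap, in the order dKO, Actr3 KO, control and treated. In each comparison of 2 groups this held for 67.8% to 75.5% of tested genes. Treated cells were 10.2-fold above Actr3 KO and 2.54-fold above control (limma adjusted p = 1.45e-10 for the latter), and dKO was 1.84-fold below Actr3 KO (limma adjusted p = 7.32e-08).

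Maff and Myc kept the same order of groups as Csrnp1 with narrower ranges. Maff was at 5261, 7510 and 7381 in control and 1992, 2038 and 1963 in Actr3 KO, against 1670, 1893 and 1703 in dKO and 9721, 10846 and 12058 in treated cells. The step from Actr3 KO to dKO, -0.19 (95% interval -0.39 to 0.01), did not pass the test (limma adjusted p = 0.0957), although the libraries did not overlap. It did pass without the first control library, the lowest of its group (adjusted p = 0.0153, range over all alternatives 0.00832 to 0.242). The estimate stayed at -0.19, since control libraries enter this comparison through the spread pooled over groups and not through the estimate. Myc was 4598 ± 365 in control and 3389 ± 147 in Actr3 KO, against 2273 ± 88.4 in dKO and 6681 ± 339.6 in treated cells. It fell in dKO against Actr3 KO with a log2 difference of -0.58 (SE 0.06, limma adjusted p = 3.05e-08) and was 1.45-fold above control with ciliobrevin D (limma adjusted p = 9.49e-08), with no overlap in either comparison. Maff was 1.62-fold above control with the drug, again without overlap.

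**Figure D3:**
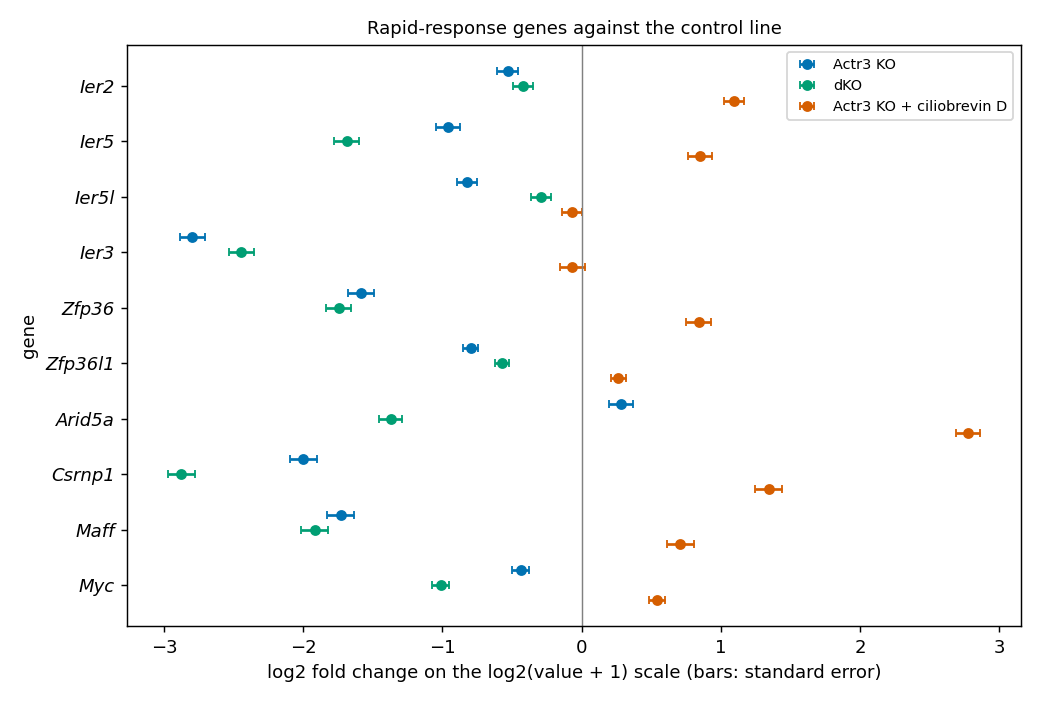
Log2 fold change against control (x axis, log2(value + 1) scale, bars are standard errors) of each gene (y axis) in Actr3 KO, dKO and Actr3 KO with ciliobrevin D. All dKO points lie below 0, from Csrnp1 at -2.88 to Ier5l at -0.29, and the treated points lie above 0 except Ier3 and Ier5l, both at -0.07.

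Over the set, all 10 genes fell in dKO against control (limma, 67.1% of tested genes called, 35.1% lower and 32% higher), with a median log2 fold change of -1.53 against -0.01 over all tested genes. Against Actr3 KO, dKO differed in both directions: Ier3, Ier5l and Zfp36l1 rose, and Arid5a, Csrnp1, Ier5 and Myc fell, where 32.5% of tested genes were called higher and 33.2% lower. That is 7 of 10 called against 65.7% of all tested genes, a share near the background, and the median was -0.17 against -0.01. With ciliobrevin D, 8 genes rose above control and 2, Ier3 and Ier5l, did not pass the test (65.1% of tested genes called, 33% higher and 32% lower, median 0.77 against 0.01). Treated Actr3 KO cells had higher levels than dKO for all 10 genes (73.4% of tested genes called, 37% higher and 36.3% lower), from 0.22 for Ier5l to 4.22 for Csrnp1 on the log2 scale. The Ier5l call was lost without the first dKO library (0.16, adjusted p = 0.0599). These comparisons share groups of libraries and are not independent of each other or of the choice of the 10 genes.

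**Figure D4:**
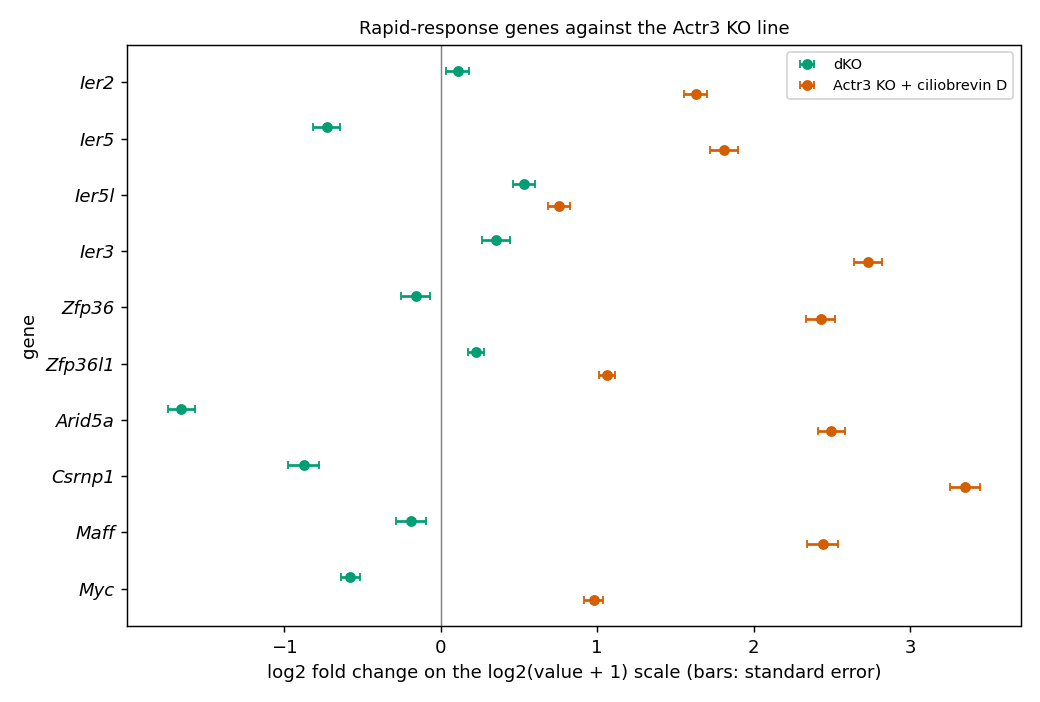
Log2 fold change against Actr3 KO (x axis, log2(value + 1) scale, bars are standard errors) of each gene (y axis) for dKO and for ciliobrevin D treatment. The treated points all lie above 0, from 0.76 for Ier5l to 3.35 for Csrnp1, while the dKO points run from -1.65 for Arid5a to 0.53 for Ier5l.

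Ranks of the libraries within a group are given as a description. The first control library was the lowest of its group for 9 of the 10 genes, and the third ciliobrevin D library was the highest of its group for 9 and the first the lowest for 9. In dKO the first library was the lowest for 7 genes and the second the highest for 6. In Actr3 KO no library was the lowest for more than 4 genes, and the second was the highest for 6. Such shares over all tested genes were not computed and the 10 genes correlate with one another, so nothing is read from these counts. As a description over 12 libraries, which share their scaling, the profile of each gene correlated with the mean standardized log2 profile of the other 9 at Pearson r = 0.998 for Zfp36, 0.994 for Maff and 0.986 for Csrnp1, and at the low end 0.649 for Ier5l and 0.791 for Arid5a. Outside the set, the genes most like the mean profile of the 10 among 11053 genes with a mean of at least 100 were Tob1 (r = 0.997), an antiproliferative gene whose product recruits deadenylases, Pxdc1 (0.996), the heme oxygenase gene Hmox1 (0.995), and the transcription factor genes Klf6 (0.995) and Cebpb (0.995). Hmox1 had the widest range of these, with 8184 ± 1690 in control and 719 ± 99.8 in Actr3 KO, against 536 ± 71.0 in dKO and 22200 ± 2751 in treated cells.

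Lists of genes tied to the 10 were described by counts over the same limma fit. They were drawn up with earlier results known and are not independent evidence. Of all tested genes, 35.4% were called lower and 34.4% higher in Actr3 KO against control. In dKO against Actr3 KO 33.2% were lower and 32.5% higher, and with ciliobrevin D against Actr3 KO 32.9% were lower and 32.7% higher. For dKO against Actr3 KO the total called in most lists was near the 65.7% of all tested genes, and nothing is read from those totals. Of 34 tested other immediate early genes, 30 fell and 1 rose in Actr3 KO (median -0.73), 19 fell and 4 rose in dKO against Actr3 KO (median -0.34), and 31 rose and 2 fell with ciliobrevin D against Actr3 KO (median 1.95). Jun, an AP-1 subunit, was 8822 ± 1926 in control and 4505 ± 328 in Actr3 KO, against 2702 ± 118 in dKO and 36021 ± 3496 in treated cells. Jund, another AP-1 subunit, also fell in Actr3 KO (log2 fold change -0.73) but rose in dKO against Actr3 KO (0.53). With ciliobrevin D Jund was above control by 0.21. Ccn1, a secreted matrix protein gene, fell with the drug (log2 fold change -0.69), unlike most of that list. Of 15 ERK phosphatases and feedback inhibitors, 14 fell in Actr3 KO and 13 rose and 1 fell with ciliobrevin D (medians -1.15 and 2.10), and in dKO against Actr3 KO 9 fell and 2 rose. The ERK phosphatase gene Dusp1 was 7742 ± 1289 in control and 2625 ± 200.3 in Actr3 KO, against 1688 ± 79.9 in dKO and 17609 ± 2054 in treated cells.

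NF-kB feedback and target genes mostly rose in Actr3 KO. Of 14 tested, 10 rose and 2 fell against control (median 0.45), and 10 rose and 3 fell with ciliobrevin D (median 0.64). In dKO against Actr3 KO 5 rose and 4 fell, a total near the 65.7% called among all tested genes. Nfkb2, a subunit gene, was 4395 ± 134 in control and 6820 ± 71.6 in Actr3 KO, against 7587 ± 108 in dKO and 9773 ± 703 in treated cells. Its order of groups was not shared by Nfkb1 and Nfkbiz, which fell in dKO against Actr3 KO (log2 fold change -0.74 and -1.33). In Actr3 KO against control Nfkb1 was not called (0.05) and Nfkbiz rose (0.47). Of 10 tested AU-rich messages known as ZFP36 targets, 7 fell and 2 rose in Actr3 KO, and 7 rose and 2 fell with ciliobrevin D. In dKO against Actr3 KO 6 fell and 1 rose, again a total near that share. Vegfa, an angiogenic growth factor gene, was 3999 ± 534 in control and 2906 ± 68.2 in Actr3 KO, against 1481 ± 39.1 in dKO and 11769 ± 1324 in treated cells. Plau, the urokinase gene, rose in Actr3 KO (0.23) and fell with the drug (-0.88).

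Relatives and partners of the 10 were called in both directions. Of 7 tested paralogs, 5 fell and 2 rose in Actr3 KO and 5 rose and 2 fell with the drug. Zfp36l2, the third decay factor, was 5044 ± 224 in control and 2764 ± 182 in Actr3 KO, against 2767 ± 101 in dKO and 5071 ± 243 in treated cells. Mafk, another small MAF gene, was 3618 ± 332, 1799 ± 20.5, 2578 ± 156 and 4844 ± 342 in the same order. Of 5 tested CNC and BACH partners of small MAF proteins, 4 fell in dKO against Actr3 KO. Of these, Bach1 had a log2 fold change of -0.80 and was 2246 ± 129.9 in dKO. Of 9 MYC partners and antagonists, 4 rose and 3 fell in Actr3 KO and 5 rose and 2 fell with the drug, shares near the 69.8% and 65.5% called among all tested genes. Of 19 tested MYC targets, 15 fell and 2 rose in Actr3 KO (median -0.61) and 14 rose and 2 fell with the drug (median 0.45). In dKO, where Myc fell further, 9 MYC targets rose and 5 fell against Actr3 KO (median 0.09), where 65.7% of all tested genes were called. Among these targets, Npm1, a nucleolar protein gene, rose by 0.51. The transferrin receptor gene Tfrc fell from 5072 ± 564 in Actr3 KO to 2122 ± 89.7 in dKO.

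All 10 heat shock genes known to be activated by HSF1 fell in Actr3 KO (median -1.15), where 35.4% of tested genes were called lower. All 10 rose with ciliobrevin D against Actr3 KO (median 2.50) and against control (median 1.43). Of all tested genes, 32.7% and 33% were called higher in these 2 comparisons. In dKO against Actr3 KO, 5 rose, 2 fell and 3 were not called (median 0.29), a total near the 65.7% called among all tested genes. Hspa8 was higher there by 0.60 and Hspa1b lower (log2 fold change -0.79). Hspa1b was 9187 ± 718 in control and 2601 ± 245 in Actr3 KO, against 1503 ± 135 in dKO and 44894 ± 6387 in treated cells, but it shares reads with its near-identical copy Hspa1a, so its level is uncertain. Hsp90aa1 was 40327 ± 3729 in control and 22572 ± 2505 in Actr3 KO, against 25999.5 ± 1828 in dKO and 154714 ± 37025 in treated cells. The part of this change in the levels of the 10 rapid-response genes was not tested.

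**Figure D5:**
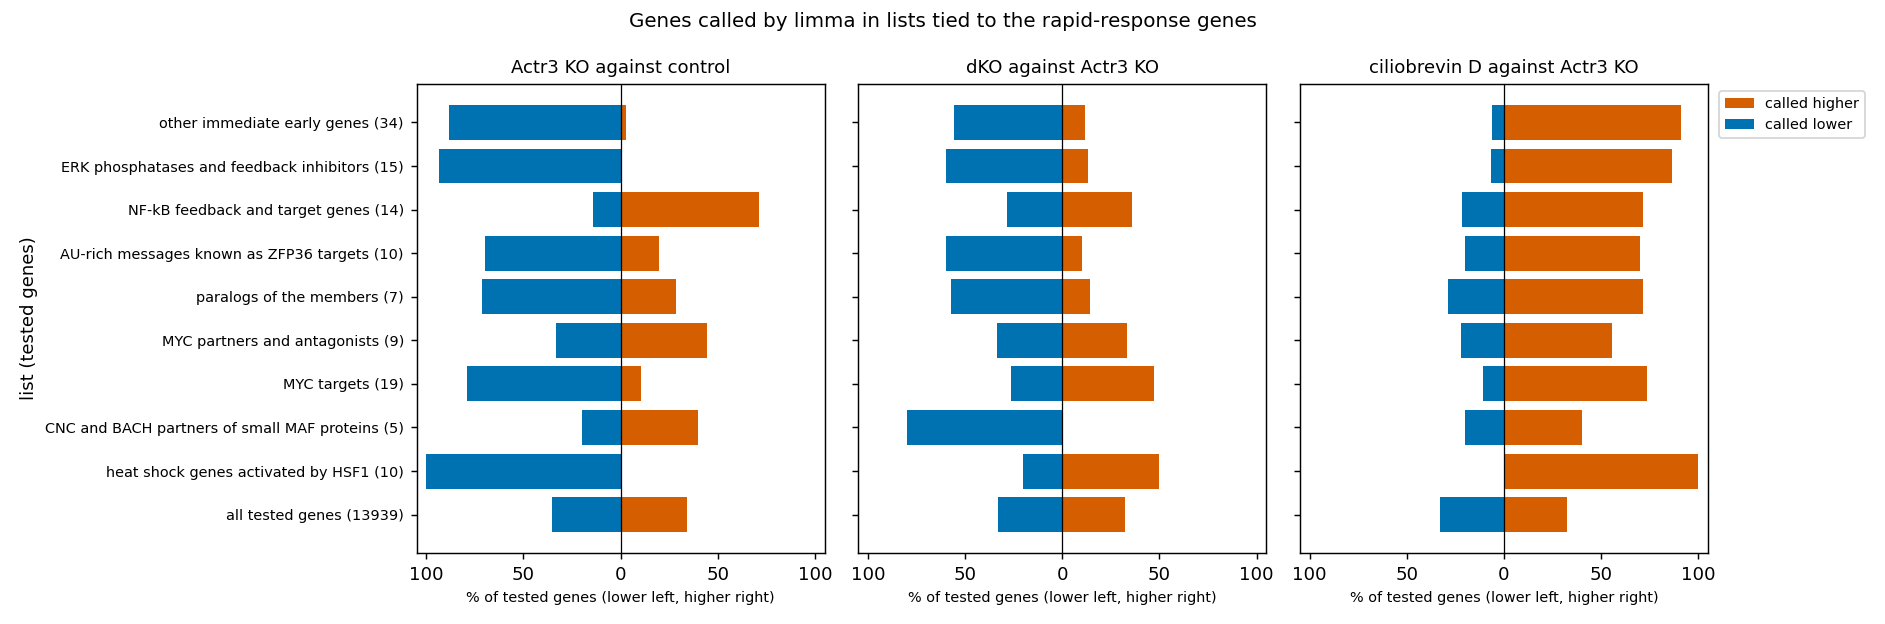
Share of each list's tested genes (x axis, percent) that limma called lower (blue, left) or higher (orange, right) in 3 comparisons, with all tested genes in the lowest row and the number tested in parentheses. All 10 heat shock genes are lower in Actr3 KO and higher with ciliobrevin D, and NF-kB genes are mostly higher in both.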

How the data were processed

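The authors deposited 1 table of normalized counts (a signal per gene, Entrez IDs) for 12 RNA-seq libraries, 3 in each of 4 groups. Per the submitters' processing notes, DESeq2 2.11.40.7, HISAT2 2.2.1, fastp 0.23.2 and featureCounts 2.0.1 were used, with builds mm10 and GRCm38. RefSeq gave names for 25275 of 27179 IDs and GENCODE for 18, and 1886 had none. All values (100%) were whole multiples, within 0.01 reads, of 1 step per library, which gave the reads back, 28902562 to 38077987 per library. Pairs of libraries in a group differed by more than sampling noise (4.48 to 16.9 as chi-square divided by its degrees of freedom).

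The 13939 genes that reached 10 normalized counts in 3 or more libraries were fitted with limma 3.58.1 (R 4.3.3, trend) on log2(value + 1), with all 12 libraries in 1 fit, which pools the spread over groups. Tests were two-sided with Benjamini-Hochberg adjustment over all tested genes and a threshold of 0.05, and intervals are 95%. Fold changes in words are ratios of group means. The procedure was tested on simulated data. Alternatives were other pseudocounts, filters and scalings, 2 groups per fit, a replicate block, leaving out each library, and edgeR 4.0.16 and DESeq2 1.42.0 on the recovered reads, 22 in all. For dKO against Actr3 KO, edgeR called 9236 genes and limma 9164.

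The members and lists were chosen with earlier results of these data known. Named were the 10 members, and up to 3 genes per list from the 3 with the highest mean value. Also named were the 5 genes with the profile most like the 10 (mean of at least 100, no predicted models), and Actr3 and Ift88. Ptprc, Cdh5, Aqp2, Slc34a1 and Col1a1 were named as markers after their values were seen. For 3′ untranslated regions, 1 GENCODE M21 transcript per gene was used, a first-rank principal one where annotated and otherwise the one with the longest region. For Zfp36, Arid5a and Myc the transcript used was not a first-rank principal one.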

Additional observations from a re-analysis of the deposited data

How the results depend on the processing

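Of 1320 values of the 10 genes (60 fold changes under 22 alternatives), 1315 kept their direction and side of the threshold. The exceptions were these. Maff in dKO against Actr3 KO (-0.19) passed with only the 2 groups compared (adjusted p = 0.00832), with a replicate block (adjusted p = 0.0422) and without control replicate 1 (adjusted p = 0.0153). Ier5l with ciliobrevin D against dKO was lost without dKO replicate 1 (0.16, adjusted p = 0.0599). Ier3 with ciliobrevin D against control turned from -0.07 to 0.0555 without ciliobrevin D replicate 1 and was -0.176 without control replicate 1, the ends of its range with each library left out. Why the Ier5l and Ier3 values moved was not tested. With each library left out in turn, 7 to 8 of the 10 genes were called in dKO against Actr3 KO, and 9 to 10 with ciliobrevin D against dKO. Rescaling moved the median of all genes by at most 0.09.

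Replicate numbers in the labels were not taken as pairs, since the 15 correlations of same-numbered libraries lay between -0.04 and 0.07. With the replicate block, which leaves out the control library without a number, 8 of the 10 genes were called in dKO against Actr3 KO (9158 of all genes against 9164 without it), and it changed no other call among the 10. With 3 libraries a group and 1 line per knockout genotype, the spread between knockout clones was not measured, and the depth limits most the genes with the fewest reads, such as Csrnp1 with 189 in a dKO library.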
